A study of Mus musculus with 12 samples.

Results

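Genes that build peroxisomes, carry substrates across the peroxisomal membrane or act inside the organelle were followed in livers of wild-type (WT) mice and of mice without Mettl5, whose product methylates an adenosine of 18S rRNA. The 10 genes were listed by symbol, and all 10 were found among 10607 genes with normalized values. They are Slc25a17 and Abcd3, which are carriers of the membrane; Pex5, Pex14, Pex16, Pex19 and Pex11a, which are peroxins; and Cat, Acaa1b and Hsd17b4, which are enzymes of the matrix. The genes were chosen by a readout of these data, since the list was drawn up because Slc25a17 had fewer ribosome-protected fragments (RPF) in knockout (KO) liver. For that reason the KO against WT values of RPF, and of translation efficiency (TE, the ratio of RPF to input of a gene), are given for the 10 genes as a description without a test. Where any of the 10 fell among the genes called in a fit over all genes, that is stated as a description too. The input values and the TE level averaged over both genotypes played no role in the choice and were tested.

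The WT controls were littermates of the KO animals, and 3 mice of each genotype gave the 6 livers studied. Mice with the same number in the sample labels were taken as 1 litter, which gave 3 litters. In the KO mice exon 2 of Mettl5, flanked by loxP sites, had been removed in the whole body by a Cre transgene under the CMV promoter (B6.C-Tg(CMV-cre)1Cgn/J), so the deletion was not limited to hepatocytes. The line came from stem cells of a C57bl/6 and 129S6 hybrid and had been backcrossed to C57bl/6, and the labels name no treatment. Males and females from weeks to months old were used in the study as a whole, and which of them gave these 6 livers is not given in the sources used here. Each liver gave 1 input library, in which RNA of a share of the lysate was sequenced as a measure of transcript abundance, and 1 RPF library, made of the short fragments that ribosomes shield from nuclease, which gave 12 libraries in 4 groups of 3.

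Input libraries held 8326325 to 11825643 counted read pairs over all genes. Within the 10607 genes of the normalized table, 2398804 to 5121304 input reads and 4623826 to 9184242 RPF reads were present. Mettl5 itself had 67, 56 and 103 RPF reads in the WT mice of litters 1, 2 and 3, and 12, 9 and 10 reads in the KO mice. The hepatocyte genes Alb, Apoa1, Ttr, Cps1, Cyp2e1 and Arg1 were present in every liver, with a summed RPF value of 638960 to 1051200 in WT and 599270 to 849080 in KO livers. The 5 of 6 stellate cell and fibroblast markers that could be tested differed between the groups in sum, at 1815 to 2012 in WT and 2669 to 2835 in KO livers for RPF, and at 901 to 1042 against 1169 to 1213 for input. Of these 5 genes, 4 were higher in all 3 KO than in all 3 WT mice in RPF, as were 6.97% of all genes tested. None of the 5 passed an adjusted p of 0.05. The other gene, Lrat, overlapped in RPF, with log2 changes of −0.17 ± 0.44 in RPF and −0.19 ± 0.39 in input. For markers of Kupffer cells, sinusoidal endothelium, cholangiocytes, lymphocytes and erythroid cells the summed RPF ranges of the genotypes overlapped, as did those of input except for erythroid genes (512 to 697 in WT and 439 to 505 in KO livers). These sums hold only genes tested in RPF. They were 5 of 6 Kupffer, 5 of 5 endothelial, 2 of 5 cholangiocyte and 2 of 3 erythroid genes. For lymphocytes only Ptprc, 1 of 3 genes, could be used. Des, the remaining stellate marker, had at most 15 input counts in any liver. The part of these markers in the results on peroxisomal genes was not tested, and in whole liver a shift in cell types cannot be told apart from a shift in RNA per cell.

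Peroxisomes are single-membrane organelles that shorten very long-chain and branched fatty acids, finish the side chains of bile acids and break down hydrogen peroxide, and they are abundant in hepatocytes. They do not make proteins of their own. Membrane proteins are brought in from the cytosol by PEX19 together with PEX3 and PEX16, and matrix enzymes are carried by the receptors PEX5 and PEX7 to a docking complex that holds PEX14 and PEX13. The membrane then needs carriers for fatty acyl-CoA, supplied by the ABCD transporters, and for cofactors, supplied by SLC25A17.

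Matrix enzymes are recognised by short signals at their ends, and both kinds of signal occur among the 3 enzymes. Catalase carries its signal at the C terminus, where PEX5 reads it. The last 60 coding bases of Cat are shown because they hold this signal, with the last 4 codons in capitals. They lie in a single exon on the minus strand at chr2:103454759-103454818 of GRCm38, from the GENCODE M21 annotation.
Cat: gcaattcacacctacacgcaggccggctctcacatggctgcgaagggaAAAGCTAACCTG

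Peroxisomal thiolase carries the other kind of signal near its N terminus, where PEX7 reads it. The first 90 coding bases of Acaa1b (chr9:119156905-119156994, minus strand) and of its close copy Acaa1a (chr9:119341515-119341604, plus strand), each within 1 exon, are printed with the 27 bases of this signal in capitals, because the copies also bear on how well footprints of Acaa1b can be assigned.
Acaa1b: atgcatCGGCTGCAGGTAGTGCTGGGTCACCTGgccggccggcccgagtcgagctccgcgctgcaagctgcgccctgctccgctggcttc
Acaa1a: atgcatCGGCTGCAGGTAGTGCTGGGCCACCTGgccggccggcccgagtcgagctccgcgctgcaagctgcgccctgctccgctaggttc

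Within these 90 bases 3 differed between the copies. Over the whole coding sequence of 1272 bases, 44 bases differed, an identity of 96.5%. Of the 1243 windows of 30 bases, about the length of a footprint, 51.3% had no difference and 85.8% had at most 2, which is the number of mismatches that the mapping of RPF reads allowed. Only reads with a single location were kept, so RPF values of Acaa1b are uncertain.

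Slc25a17 (ENSMUSG00000022404, chr15:81318911-81360812, 9 coding exons) encodes the membrane carrier that exchanges coenzyme A, FAD and related nucleotides across the peroxisomal membrane. Normalized values are read numbers divided by a single factor for each library. Input values of Slc25a17 were 211, 202 and 203 in WT mice 1, 2 and 3 and 184, 177 and 185 in KO mice 1, 2 and 3. All KO livers were below all WT livers, although the difference was small and did not pass the test (log2 fold change −0.15 ± 0.15 SE, adjusted p = 0.999, edgeR on the full count table, n = 3 and 3). Footprints were spread more widely, with RPF values of 456, 506 and 538 in WT livers and 373, 258 and 246 in KO livers. The 3 KO values lay below the 3 WT values, and KO mouse 1 stood closest to the WT animals. The KO mean was 58.5% of the WT mean (292 ± 70.4 against 500 ± 41.7, mean ± SD, n = 3), or −0.79 ± 0.16 on the log2 scale in the fit across all genes. In that fit input and RPF libraries share a single estimate of the spread of a gene, so the SE is not that of RPF alone. Footprints per transcript followed the same pattern, with TE of 2.16, 2.50 and 2.65 in WT and 2.03, 1.46 and 1.32 in KO mice, a log2 change of −0.62 ± 0.22.

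The RPF decrease that led to the list made Slc25a17 the 27th gene by p-value of 8994 tested in RPF, and 1 of 29 that were lower in KO at an adjusted p under 0.05 (0.322% of genes tested). It was the only one of the 10 genes in that set. Whether it stayed there varied between fits, and so did the number of all genes that passed. In either direction 44 genes passed with all mice and 226 without KO mouse 1. Without KO mouse 1 the decrease grew to −0.98, and without KO mouse 3 it shrank to −0.68. Slc25a17 kept its place past the threshold without KO mouse 1. It lost that place when WT mouse 1, 2 or 3 or KO mouse 2 or 3 was left out, while the direction held each time. Without WT mouse 1 the place was lost although the decrease, at −0.86, was larger than the −0.79 with all mice. Slc25a17 also lost its place when a trend with GC content of the coding sequence was removed (−0.69), and kept it with a replicate block of litter. These calls use the values that led to the list and are not evidence for a decrease.

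Abcd3 (ENSMUSG00000028127, chr3:121758774-121815302, 23 coding exons) encodes a transporter that imports branched acyl-CoA and bile acid precursors. Input values overlapped, at 2346, 2440 and 2119 in WT and 2184, 2185 and 2211 in KO mice (−0.04 ± 0.13, adjusted p = 0.999, edgeR). RPF values were 3392, 3549 and 2760 in WT and 2583, 2329 and 2058 in KO mice. No KO value reached the lowest WT value, and the KO mean was 71.8% of the WT mean (−0.47 ± 0.13). TE was 1.45, 1.45 and 1.30 against 1.18, 1.07 and 0.93, again without overlap (−0.41 ± 0.19). With the replicate block Abcd3 joined Slc25a17 past the RPF threshold, so that 2 of the 10 genes were in place of 1, while 2.62% of all genes passed there. The same happened without KO mouse 1, where 2.52% of all genes passed. With the block and the trend with coding GC content removed, 0.746% of all genes and only Slc25a17 of the 10 passed, and Abcd3 was at −0.29. These calls too belong to a list chosen for an RPF decrease and are not evidence for a decrease of Abcd3.

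**Figure D1:**
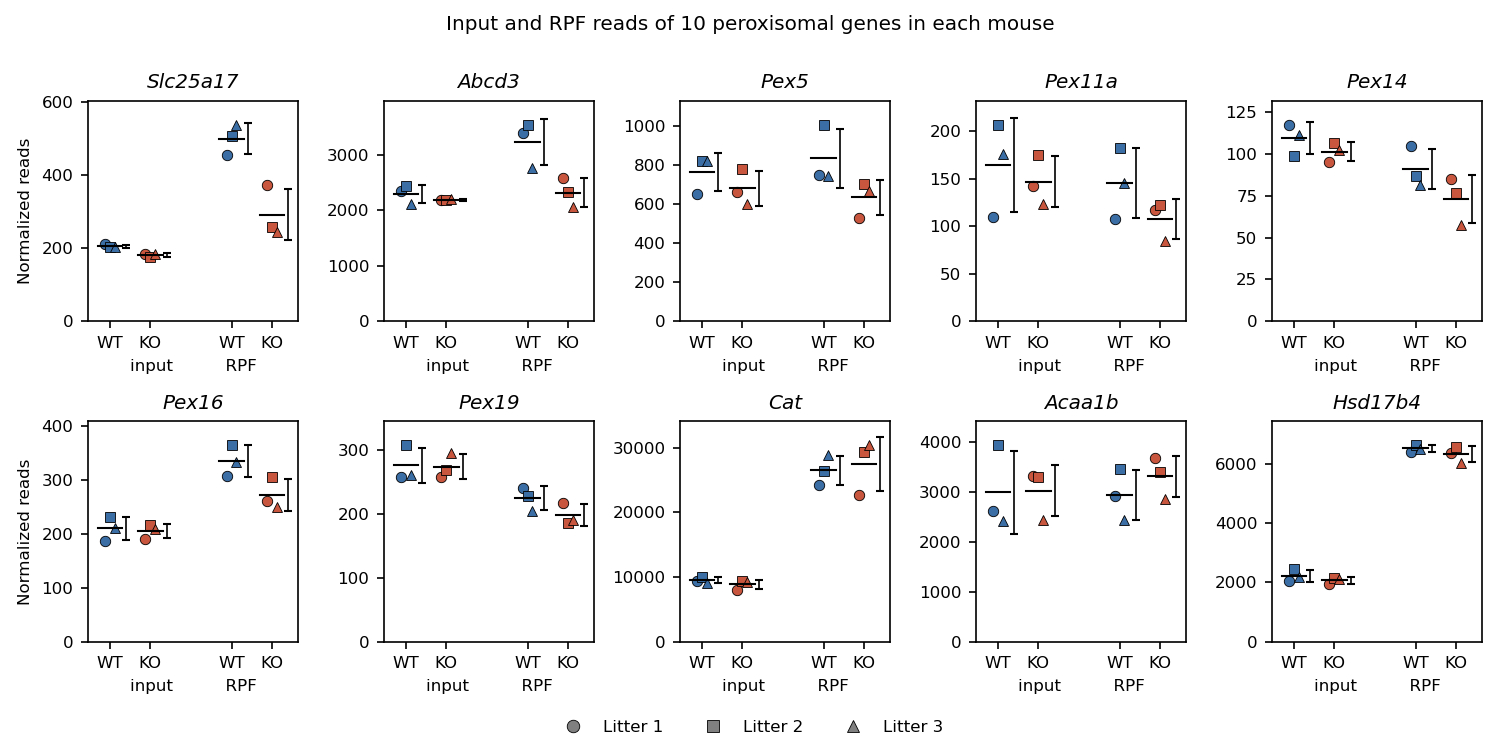
Normalized reads (vertical axis, from 0) of the 10 genes in input and RPF libraries of 3 WT (blue) and 3 KO (red) livers. Symbols mark the litter, horizontal bars the mean and error bars the SD. RPF values of Slc25a17 lie between 456 and 538 in WT and between 246 and 373 in KO livers, whereas those of Hsd17b4 overlap.

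Pex5 (ENSMUSG00000005069, chr6:124396816-124415067, 15 coding exons) encodes the receptor of most matrix enzymes. Its RPF values were 749, 1007 and 745 in WT and 531, 704 and 666 in KO livers, which did not overlap and placed the KO mean at 76.0% of WT (−0.39 ± 0.16). Input values were 649, 820 and 820 in WT and 660, 778 and 603 in KO livers, with overlap (−0.14 ± 0.15, adjusted p = 0.999, edgeR). TE of KO mouse 3, at 1.10, lay within the WT values of 1.15, 1.23 and 0.91, and the other two KO values were 0.80 and 0.91. Mean input was also lower, at 89.1% of WT.

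Pex14 (ENSMUSG00000028975, chr4:148960535-149099876, 9 coding exons) encodes the docking protein that receives loaded PEX5 at the membrane. It had the lowest levels of the 10 genes, with 60 to 158 RPF reads and 63 to 145 input reads in a library. RPF values were 105, 87.0 and 81.5 in WT and 84.8, 76.8 and 57.3 in KO mice, so KO mouse 1 lay within the WT range (80.2% of WT, −0.33 ± 0.19). Without KO mouse 3 the difference was −0.16. Input values of 117, 98.7 and 111 in WT and 95.4, 106 and 102 in KO mice overlapped as well (−0.08 ± 0.18, adjusted p = 0.999, edgeR). TE was 0.89, 0.88 and 0.73 in WT and 0.89, 0.72 and 0.56 in KO mice, lowest in KO mouse 3 (−0.22 ± 0.26).

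Pex16 (ENSMUSG00000027222, chr2:92374676-92381217, 11 coding exons) encodes a membrane peroxin that acts at the start of peroxisome assembly. Input was close in both genotypes, with 187, 230 and 211 in WT and 190, 215 and 208 in KO livers (−0.02 ± 0.15, adjusted p = 0.999, edgeR). RPF values of the WT livers were 306, 364 and 333, and those of the KO livers 260, 304 and 249. The groups were separated by a narrow margin, KO mouse 2 being just under WT mouse 1 (81.1% of WT, −0.30 ± 0.14). TE of Pex16 was nearly constant in WT, at 1.63, 1.58 and 1.58, and lower in every KO mouse, at 1.37, 1.41 and 1.20 (−0.27 ± 0.20).

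Pex19 (ENSMUSG00000003464, chr1:172126755-172136493, 8 coding exons) encodes the cytosolic chaperone and carrier of peroxisomal membrane proteins. RPF values of 241, 229 and 205 in WT and 218, 186 and 191 in KO livers overlapped, and the KO value was the lower in each of the 3 litters (88.3% of WT, −0.18 ± 0.14). Input values were 259, 309 and 262 in WT and 259, 270 and 296 in KO mice and overlapped (0.01 ± 0.14, adjusted p = 0.999, edgeR). TE was 0.93, 0.74 and 0.78 in WT and 0.84, 0.69 and 0.65 in KO mice, with KO mouse 1 above WT mice 2 and 3 (−0.17 ± 0.20).

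Pex11a (ENSMUSG00000030545, chr7:79735957-79743131, 3 coding exons) encodes a membrane protein that takes part in elongation and division of peroxisomes. Its fold changes had the largest SE of the 10 genes, with input of 110, 207 and 176 in WT and 142, 175 and 123 in KO livers (−0.14 ± 0.22, adjusted p = 0.999, edgeR). RPF values of 108, 183 and 146 in WT and 117, 122 and 84.1 in KO livers moved with input, and in litter 1 the KO value was the higher. Relative to input the variation was smaller, and TE was 0.98, 0.88 and 0.83 in WT against 0.82, 0.70 and 0.68 in KO mice, without overlap (−0.29 ± 0.34). The lowest WT and the highest KO ratio were close together.

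RPF values of the 3 matrix enzymes overlapped between genotypes. Cat (ENSMUSG00000027187, chr2:103453849-103485160, 13 coding exons) encodes catalase, which decomposes hydrogen peroxide. Its RPF values were 24240, 26385 and 28843 in WT and 22758, 29329 and 30441 in KO livers, a KO mean of 104% of WT (0.05 ± 0.14). Input of 9394, 9951 and 9060 in WT and 8022, 9391 and 9172 in KO mice overlapped also (−0.07 ± 0.14, adjusted p = 0.999, edgeR), and in each litter TE was higher in the KO mouse (2.84, 3.12 and 3.32 against 2.58, 2.65 and 3.18).

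Hsd17b4 (ENSMUSG00000024507, chr18:50128201-50196269, 24 coding exons) encodes the multifunctional enzyme that performs the hydratase and dehydrogenase steps of peroxisomal beta-oxidation. Its RPF change had the smallest SE of the 10 genes, with values of 6417, 6646 and 6520 in WT and 6359, 6580 and 6046 in KO livers (96.9% of WT, −0.05 ± 0.12). The KO value was slightly the lower in each of the 3 litters, and the groups overlapped. TE was 3.14, 2.71 and 3.01 in WT and 3.27, 3.07 and 2.84 in KO mice and overlapped as well (0.05 ± 0.17). Its input values were 2042, 2454 and 2167 against 1944, 2143 and 2127 and overlapped (−0.08 ± 0.14, adjusted p = 0.999, edgeR).

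Acaa1b (ENSMUSG00000010651, chr9:119148023-119157093, 12 coding exons) encodes a thiolase of the last step of peroxisomal beta-oxidation. RPF values were 2911, 3451 and 2441 in WT and 3674, 3405 and 2859 in KO livers and overlapped (113% of WT, 0.18 ± 0.19). Input was 2614, 3942 and 2417 in WT and 3326, 3304 and 2434 in KO mice, also with overlap (0.04 ± 0.20, adjusted p = 0.999, edgeR). TE of 1.11, 0.88 and 1.01 in WT and 1.10, 1.03 and 1.17 in KO mice overlapped too (0.15 ± 0.26). Its copy Acaa1a had RPF means of 677 ± 63.7 in WT and 677 ± 61.6 in KO livers. The reservation on shared footprints, described with the sequences, holds for both copies.

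Side by side, the 7 carriers and peroxins all had a negative RPF change, from −0.79 for Slc25a17 to −0.18 for Pex19, with a median of −0.39. The 3 matrix enzymes ranged from −0.05 to 0.18 with a median of 0.05, and the median of all 8994 genes tested was −0.03, with 54.0% of them negative. Lists that leave out the 10 genes, given below, did not show this split. Their RPF medians were −0.09 for other peroxins and 0.02 for the membrane list. For fatty acid enzymes the median was −0.04 and for other matrix enzymes −0.22. TE medians were −0.27 for carriers and peroxins, 0.14 for matrix enzymes and −0.01 for all genes. Input medians lay near 0 for both groups, at −0.08 and −0.07. In RPF all 3 KO mice were below all 3 WT mice for Slc25a17, Abcd3, Pex5 and Pex16, 4 of the 10 genes, a pattern that 12.9% of all genes tested showed. In TE this held for Slc25a17, Abcd3, Pex11a and Pex16 (7.34% of all genes), and in input for Slc25a17 alone (5.60% of all genes). None of the 10 genes was higher in all KO than in all WT mice, which was seen for 6.97% of all genes in RPF, 3.65% in input and 6.09% in TE. In TE 0 of the 8994 genes passed by limma (0.0%), and 4.70% had an unadjusted p under 0.05. These shares describe a list chosen for its RPF decrease and are not evidence of it.

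**Figure D2:**
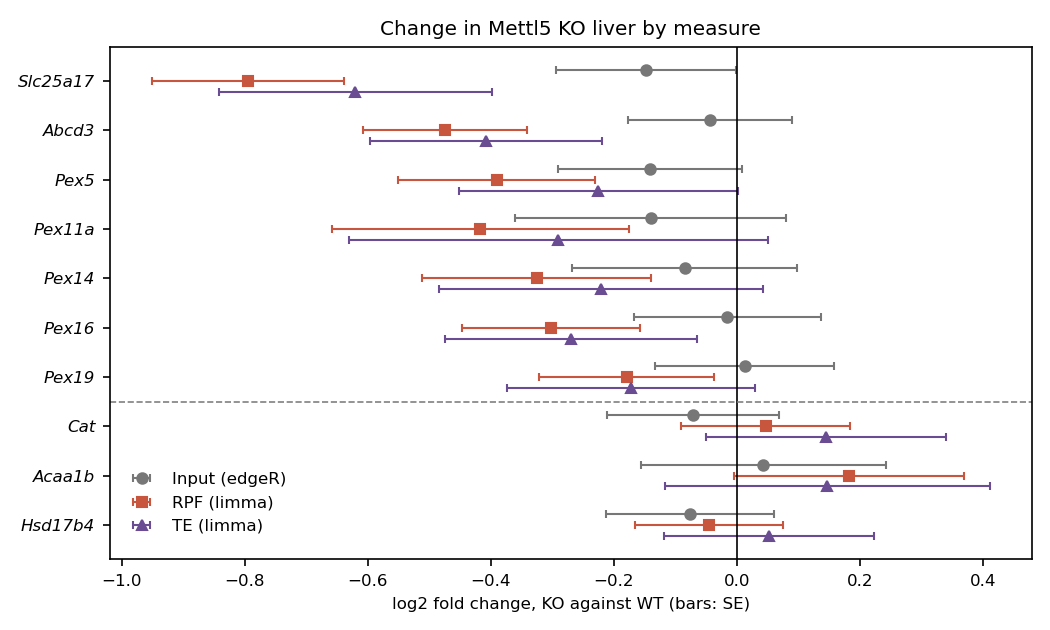
Log2 fold change, KO against WT (horizontal axis), with its SE as bars, for input (grey), RPF (red) and TE (purple). Genes above the dashed line are carriers and peroxins, whose RPF changes run from −0.79 to −0.18. Genes below it are matrix enzymes, whose RPF changes run from −0.05 to 0.18, and input changes of all 10 lie between −0.15 and 0.04.

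Transcript abundance was the measure that could be tested between genotypes for these genes. None of the 10 genes passed in input, and neither did any of the 10057 genes tested (0.0%, edgeR quasi-likelihood test with Benjamini-Hochberg adjustment). At an unadjusted p under 0.05 there were 348 genes (3.46%), none of them among the 10. Over all genes, DESeq2 called 1 gene, and the fit with a replicate block of litter called 2. The SE of 0.13 to 0.22 on the log2 scale leaves room for modest changes in transcript abundance of each gene. Mettl5 itself, with 5 to 21 input reads in a library, did not pass either (−1.59 ± 0.46, adjusted p = 0.999, edgeR). The lack of calls in input therefore does not show that transcript abundance was unchanged.

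Levels were compared between genes only per kilobase, over coding length for RPF and over exon length for input. Exon length covers all annotated exons of a gene, and which of them the transcripts in liver hold was not examined. In WT livers Cat stood far above the rest with a mean of 16755 RPF reads per kilobase, followed by Hsd17b4 (2961), Acaa1b (2307) and Abcd3 (1636), each apart from the next in the range of 3 mice. Slc25a17 (543) and Pex5 (435) overlapped and came next, ahead of Pex16 (332). Pex19 (251) and Pex11a (197) overlapped too, and Pex14 was last with 80.7. The 3 enzymes thus stood above Abcd3, and Abcd3 above the peroxins, with the level of Acaa1b uncertain because of its shared footprints.

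Input per kilobase of exon gave nearly that order, from 3624 for Cat to 17.4 for Pex14. Acaa1b (1524) preceded Hsd17b4 (653), and Slc25a17 (72.2) stood lower than in RPF, level with Pex19 (72.5) and below Pex5 (193) and Pex16 (118). Slc25a17 therefore had more footprints for its transcript level than Pex19 did.

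Footprints relative to input were also read as the TE level, averaged over WT and KO and set against the median gene. In its deposited form this level takes no account of gene length. As deposited, Hsd17b4 (1.50 ± 0.09, log2, adjusted p = 2.16e-11, limma), Cat (1.47 ± 0.10, adjusted p = 1.7e-10), Slc25a17 (0.88 ± 0.11, adjusted p = 9.11e-07) and Pex16 (0.45 ± 0.10, adjusted p = 0.000663) lay above the median gene. Pex19 (−0.47 ± 0.10, adjusted p = 0.000431) and Pex14 (−0.46 ± 0.13, adjusted p = 0.00457) lay below it. Abcd3, Pex11a, Pex5 and Acaa1b did not pass, with values of 0.20 ± 0.09 (adjusted p = 0.0747), −0.39 ± 0.17 (adjusted p = 0.0525), −0.08 ± 0.11 and −0.02 ± 0.13. With the replicate block of litter both Abcd3 (adjusted p = 0.0377, limma) and Pex11a (adjusted p = 0.0193) passed at the same values. Passing this test was common, since 33.2% of all genes lay above and 34.3% below.

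RPF reads come from the coding sequence, while input reads come from all exons, so a gene with long untranslated exons has a low TE as deposited. Coding sequence made up 18.0% of the exon length of Pex14, 23.2% of Pex11a and 23.5% of Pex19, but 60.5% of Cat and 64.8% of both Acaa1b and Hsd17b4, with a median of 33.8% over genes. When RPF was taken per coding length and input per exon length, Slc25a17 had the highest TE level of the 10 genes (0.97 ± 0.11, adjusted p = 2.09e-07, limma). Cat (0.65 ± 0.10) and Hsd17b4 (0.59 ± 0.09) remained above the median gene, and Abcd3 (0.39 ± 0.09, adjusted p = 0.00107) joined them. Pex14 turned to 0.47 ± 0.13 (adjusted p = 0.00343) and Pex16 to −0.27 ± 0.10 (adjusted p = 0.0232), so the side on which these peroxins fell depended on the annotated lengths. Pex5 (−0.58 ± 0.11, adjusted p = 0.000154) and Acaa1b (−0.94 ± 0.13, adjusted p = 4.69e-06) fell below the median gene, and Pex11a (0.18 ± 0.17) and Pex19 (0.08 ± 0.10) did not pass. In this form 36.1% of all genes passed above the median and 35.0% below it. On both scales Slc25a17, Cat and Hsd17b4 were above the median gene. The values of Acaa1b on both scales rest on RPF values that its shared footprints make uncertain.

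**Figure D3:**
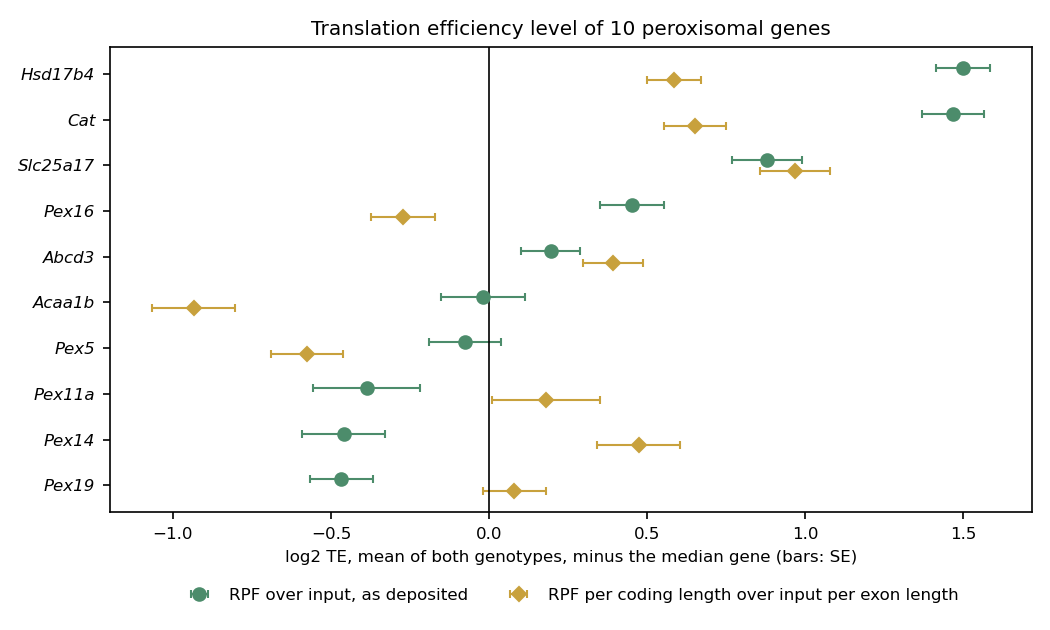
TE level over both genotypes (horizontal axis, log2, minus the median gene) with its SE as bars, as deposited (circles) and with RPF per coding length over input per exon length (diamonds). Slc25a17 lies at 0.88 and 0.97, whereas Pex14 moves from −0.46 to 0.47.

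Base composition of the coding sequence also varied among the 10 genes. Across the 8986 genes with a coding sequence, the RPF change correlated with GC content of the coding sequence (Spearman rho 0.455, a description across genes, which are not independent replicates). Abcd3 (45.1% GC) and Slc25a17 (48.9%) lay on the low side of the median of 52.6%, as did Hsd17b4 (49.8%) and Cat (51.8%), whose RPF changes were near 0. Pex11a (53.5%), Pex19 (55.3%), Pex5 (57.1%), Pex16 (57.9%) and Pex14 (58.8%) lay above it, as did Acaa1b, which had the highest GC content of the 10 (60.1%) and the highest RPF change (0.18). With the trend removed from each library the RPF change of Abcd3 was −0.29 and that of Slc25a17 −0.69, while that of Pex16 was −0.45, Pex5 −0.51 and Pex14 −0.50, and Acaa1b went from 0.18 to −0.03. The negative values of the carriers were thus smaller in size, and those of these 3 peroxins larger, once the trend was removed.

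**Figure D4:**
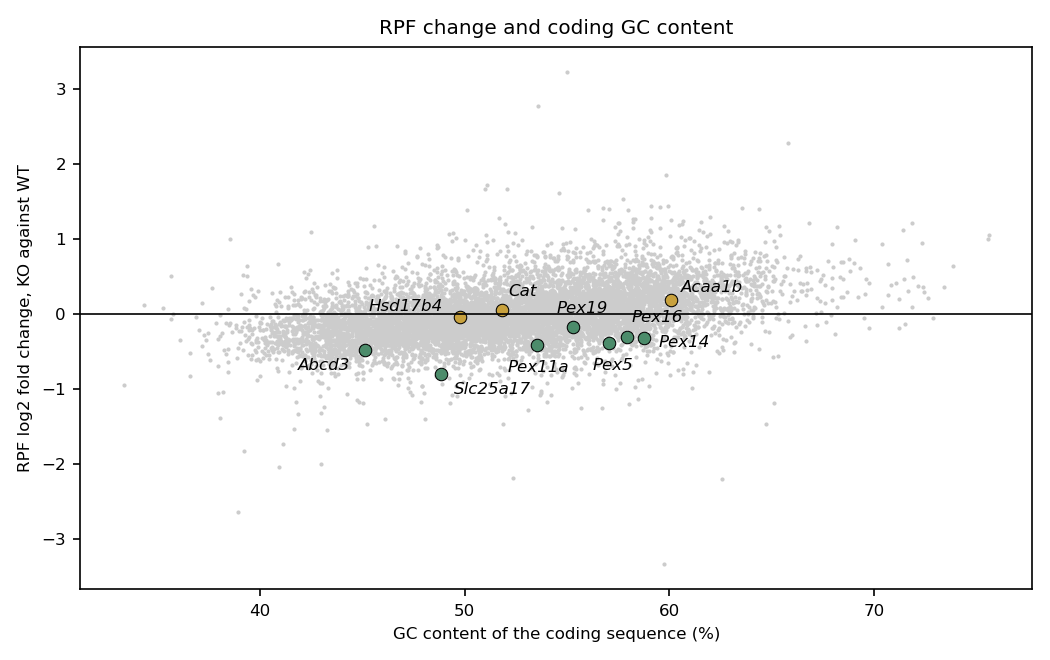
GC content of the coding sequence (horizontal axis, percent) against the RPF log2 fold change, KO against WT (vertical axis), for all genes tested (grey points). The 7 carriers and peroxins (green) lie below 0 across GC contents from 45.1% to 58.8%, and the 3 matrix enzymes (yellow) lie near 0.

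The genes whose values moved most like those of Slc25a17 were Plcb1, a phospholipase C (r = 0.940), Ranbp9, a scaffold of a ubiquitin ligase complex (r = 0.927), Cdc42, a small GTPase (r = 0.921), Ascc3, a helicase that also splits stalled ribosomes (r = 0.920) and Eif3e, a subunit of an initiation factor (r = 0.913). Likeness was Pearson's r over the 12 libraries on log2 values after the mean of each assay had been subtracted, among the genes tested in RPF. Abcd3 ranked 91st (r = 0.828), whereas Pex5 had r = 0.401 and Cat r = −0.316. The 12 points share mice and 4 groups, so these values describe likeness only. RPF changes of the 5 genes were −0.52 ± 0.18 for Plcb1, −0.47 ± 0.14 for Ranbp9, −0.65 ± 0.14 for Cdc42, −0.57 ± 0.16 for Ascc3 and −0.33 ± 0.14 for Eif3e. The difference between genotypes was not removed before r was taken. The negative sign of these changes therefore follows in part from the way the genes were picked.

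Further genes, listed as peroxisomal, were read from 4 lists that leave out the 10 genes. Of 63 genes 60 could be tested in RPF, and 0 passed an adjusted p of 0.05 by limma, against 0.489% of all genes in either direction. By edgeR on whole reads the number was 0 as well, and at an unadjusted p under 0.05 by limma it was 17 (against 13.4% of all genes tested). RPF changes were negative for 38 of the 60 (63.3%), with a median of −0.12, and all KO values were below all WT values for 15 genes (25.0%) and above them for 5 (12.9% and 6.97% of all genes). With the replicate block 6 genes passed (2.62% of all genes did), of which Hao1, Scp2, Pex3 and Ephx2 were lower in KO and Agxt and Abcd2 higher. With the block and the GC trend removed, none of the 4 lower genes passed and Abcd2 alone remained. Without KO mouse 1 there were 5 (2.52% of all genes passed), namely Hao1, Scp2 and Pex3, which were lower, and Agxt and Pxmp2, which were higher. Agxt, Abcd2, Ephx2 and Pxmp2 are named here because they passed in those fits.

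Among the 14 other peroxins and division factors, 9 had a negative RPF change and the median was −0.09. The smallest p belonged to Pex3, the membrane anchor that receives PEX19 with its cargo, which had RPF means of 188 ± 26.8 in WT and 107 ± 24.1 in KO livers (−0.82 ± 0.21, adjusted p = 0.0788, limma). Its 3 KO values were below its 3 WT values.

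The 9 genes of the membrane list, not all of which are particular to peroxisomes, were divided, with 4 negative and 5 positive and a median of 0.02.

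Of the 23 fatty acid enzymes tested, 14 were negative and 9 positive, with a median of −0.04. Scp2, which encodes the thiolase for branched chains and the sterol carrier protein, had RPF means of 36506 ± 2041 in WT and 23976 ± 1892 in KO livers (−0.61 ± 0.15, adjusted p = 0.0691, limma). The RPF values of this list summed to 94212 to 98589 in WT and to 77815 to 78662 in KO livers, without overlap, and Scp2 alone made up 68.7% of the gap between the means. Without Scp2 the sums were 58761 to 61515 in WT and 52558 to 55816 in KO livers. Input sums were 38273 to 40557 in WT and 30127 to 37759 in KO livers with Scp2, and overlapped without it. Of the 14 other matrix enzymes tested, 11 were negative, with a median of −0.22. Hao1, the hydroxyacid oxidase that forms glyoxylate, had the smallest p, with RPF means of 3055 ± 36.0 in WT and 2126 ± 108 in KO livers (−0.52 ± 0.12, adjusted p = 0.0520, limma). Agxt, which converts glyoxylate to glycine, lay on the other side (1146 ± 111 against 1676 ± 154, 0.55 ± 0.14, adjusted p = 0.0788).

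PPARA is the nuclear receptor that switches on many peroxisomal genes in liver. Of its 11 tested genes outside the peroxisome, the receptor included, 9 had a positive RPF change and 2 a negative one. The median was 0.30, 0 genes passed by limma, and 0 had an unadjusted p under 0.05. Acadm, an enzyme of mitochondrial beta-oxidation, had the smallest p (1452 ± 92.9 in WT, 1793 ± 118 in KO livers, 0.30 ± 0.15, adjusted p = 0.392, limma). In input 0 of the 70 genes tested from the 5 lists passed by edgeR or DESeq2, and 4 had an unadjusted p under 0.05 by edgeR.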

How the data were processed

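Input RNA and RPF were sequenced from 6 livers, 3 WT and 3 Mettl5 KO. The authors' deposited input counts are whole read pairs per gene: reads were trimmed with BBDuk, aligned to mm10 with STAR 2.7.3a, and uniquely mapped pairs were counted over exons with featureCounts, using the strand. The release of featureCounts differs between the notes and the file. For RPF the authors used read 1, removed rRNA and mapped with RiboToolkit to a single location with up to 2 mismatches, without removal of duplicates. The deposited TE file has normalized signal for the 12 libraries, per the file headers, called RPKM by the authors. These values are reads divided by 1 factor per library without gene length: 100% of the values in each column were whole multiples of 1 read (tolerance 0.01 read). The table's columns of log2 fold change, p-value and adjusted p-value hold the authors' comparison of TE and were not used. No column of values was left without a sample.

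Input counts were tested with edgeR 4.0.16 (TMM, filterByExpr, robust quasi-likelihood test) in R 4.3.3. RPF, TE and TE level were fitted with limma 3.58.1 (trend, robust) on log2(value + 1), with 4 group means, for genes whose mean reached 10 in both assays. All 12 libraries shared a single estimate of the spread of each gene, so SEs and calls of RPF changes also rest on input libraries. Tests were two-sided, with Benjamini-Hochberg adjustment. Fold changes on this scale understate those of low genes. The SE for edgeR was obtained from the log2 change and its F statistic. Gene positions and coding sequences are from GENCODE M21 (GRCm38), whose coordinates equalled those of the count table for 54349 of 55487 genes. The longest coding sequence of each gene was used. Scripts were tested on simulated data.

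The 10 genes, the lists and the tests were chosen with earlier results of these data known. The genes named are these 10, the gene of each list with the smallest RPF p where none passed (1 of these is not reported here), the 5 most like Slc25a17, Mettl5, and genes said to be named for their values. Litter numbers are the mouse numbers in the sample labels, on the reading that equal numbers share a litter. Deviations of mice paired in this way from their group means had correlations of 0.082, 0.127 and 0.100 (input), and 0.242, 0.144 and 0.195 (RPF). The study states no litter term, so fits without it come first. Alternatives were DESeq2 1.42.0, RLE factors, changed filters, a pseudocount of 0.1 or 5, blocks of litter or mouse, edgeR on whole reads, removal of a GC trend (spline of 4 degrees of freedom) and leaving out each mouse. TE level per length was added after the data were seen.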

Additional observations from a re-analysis of the deposited data

How the results depend on the processing

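In all, 660 values of 50 results were recomputed. Of these, 594 kept their direction and side of the threshold or moved less than the spread between mice, 13 passed a threshold they had missed, 35 moved further and 18 changed sign, and the causes were not tested. The number of genes called in input, 0, became 1 with DESeq2, 30 without a count filter, 2 with the replicate block and 0 to 21 when 1 mouse was left out. In RPF 44 genes were called, against 15 with the GC trend removed, 236 with the replicate block, 67 with both, and 0 to 226 without 1 mouse. Of the 10 peroxisomal genes 1 was called in RPF, against 0 with the GC trend removed, 2 (Slc25a17 and Abcd3) with the replicate block and 0 to 2 without 1 mouse. The calls of these 10 genes rest on the values that led to the list and are not evidence for a decrease. Of the 4 other peroxisome lists 0 were called in RPF, against 1 (Hao1) at a mean of at least 50, 6 with the replicate block, 1 (Abcd2) with block and GC trend removed, and 0 to 5 without 1 mouse. For the mean of at least 50 the share of all genes called is not given, so the call of Hao1 is not set against it. In TE 0 genes were called (423 at an unadjusted p under 0.05, limma), and 1 with the replicate block. The number of genes called in TE level, 6067, fell to 3665 at a mean of at least 50, where fewer genes were tested. Beside these and the TE levels of Abcd3 and Pex11a, the block changed no call of the 10 genes.

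TE level changed sign without a filter for Pex5 (0.0016) and Acaa1b (0.059), and per length for Pex11a (0.18), Pex14 (0.47), Pex16 (−0.27) and Pex19 (0.080). It ran from −0.048 to 0.037 for Acaa1b when 1 mouse was left out. Input changes that crossed 0 when 1 mouse was left out ran from −0.35 to 0.051 for Pex11a, from −0.087 to 0.055 for Pex16, from −0.034 to 0.097 for Pex19 and from −0.092 to 0.29 for Acaa1b. With 3 mice a group, values rest on few animals, and Pex14 and Pex11a had as few as 60 reads in a library.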
